A study of Mus musculus with 2 samples.

Results

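The genes described here are 8 members of the system that sets the timing of fetal growth: the RNA-binding protein genes Lin28a and Lin28b, the 3 insulin-like growth factor 2 mRNA-binding protein genes Igf2bp1, Igf2bp2 and Igf2bp3, the chromatin gene Hmga2, and the transcription factor genes Mycn and Myc. They were taken by symbol from the 32285 genes of the deposited tables, and all 8 were found. They were measured by droplet single-cell RNA sequencing of kidney from mice at postnatal day 0, in 2 libraries that carry the same label, Rbpj c/+ ; Foxd1cre/+, that is, 1 conditional Rbpj allele together with a Cre allele of Foxd1, a gene of the kidney stroma. With a single genotype, every comparison below is between cell classes. The Cre acts in cells that express Foxd1 and their descendants, so stroma-derived cells may carry 1 recombined Rbpj allele, which was not measured. The labels do not say whether the libraries come from separate animals or from pooled kidneys, and the replicate numbers only name them. The p-values therefore measure only how far differences between classes varied between these 2 libraries, pooled over the classes. They cannot be read as spread between animals.

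In vertebrate development LIN28 proteins bind the precursors of let-7 microRNAs and block their maturation, and mature let-7 in turn represses mRNAs that carry matches to its seed, among them Lin28b, Hmga2 and the Igf2bp family. The IGF2BP proteins bind and stabilise growth-related mRNAs, HMGA2 is an architectural chromatin protein of embryonic and stem cells, and MYC and MYCN drive ribosome production and proliferation. In the kidney, nephron progenitors exist only before and shortly after birth in the mouse, and MYCN and LIN28 proteins are known for their part in the growth of this pool and, when misregulated, in Wilms tumour.

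In GRCm38, Hmga2 (ENSMUSG00000056758) lies at chr10:120361275-120476469, Lin28b (ENSMUSG00000063804) at chr10:45376620-45486395, Mycn (ENSMUSG00000037169) at chr12:12936093-12941914 and Myc (ENSMUSG00000022346) at chr15:61985391-61990374, Myc alone of these 4 on the plus strand. Lin28a (ENSMUSG00000050966) lies at chr4:134003330-134018841, Igf2bp1 (ENSMUSG00000013415) at chr11:95957163-96005940, Igf2bp2 (ENSMUSG00000033581) at chr16:22059009-22163299 and Igf2bp3 (ENSMUSG00000029814) at chr6:49085223-49214957, all on the minus strand.

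The mature let-7 sequences and the matching sites are shown because the transcripts of most members hold a match to the let-7 seed. The RefSeq set listed 11 mature let-7 family members, of which 10 shared the seed GAGGUAG at bases 2 to 8. Below, the capitals mark the seed, and let-7j is the listed member whose seed differs.
let-7a-5p: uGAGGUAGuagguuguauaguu
let-7c-5p: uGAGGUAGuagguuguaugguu
let-7g-5p: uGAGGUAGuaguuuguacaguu
let-7j: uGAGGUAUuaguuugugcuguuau

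The DNA letters that pair with this seed, CTACCTC, were searched on the transcript strand of the longest annotated 3′ untranslated region of each gene (GENCODE M21, GRCm38). They occurred 4 times in Hmga2, 4 times in Lin28b, 4 times in Igf2bp1, 2 times in Lin28a, and 1 time each in Igf2bp2 and Igf2bp3. Mycn and Myc held no match in regions of 913 and 466 bases, which says only that these letters are not in these regions. The 8 regions together held 16 matches in 21853 bases, or 0.732 per kb, against 0.0700 per kb over the 21037 genes with an annotated 3′ untranslated region. Several members were known let-7 targets beforehand, so this difference is a description and not a test. Of all those genes 9.02% held at least 1 match, and 7.67% held 1 on the opposite strand. Long regions hold more matches, so shares were taken among genes with a region of similar length (from 0.8 times as long up to the same factor longer), the member itself included. Of these, 0.123% held at least as many as Hmga2, 0.295% at least as many as Lin28b and 0.331% at least as many as Igf2bp1. The share was 2.06% for Lin28a, against 12.1% for Igf2bp2 and 13.3% for Igf2bp3. Hmga2, with 4 matches in 3014 bases, is shown in full, followed by the first matches of the other members that were abundant or contrasted with it. Each line is the transcript strand, 5′ to 3′, with the 7 bases of the match in capitals.
Hmga2 site 1, chr10:120364224-120364245, minus strand: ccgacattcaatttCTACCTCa
Hmga2 site 2, chr10:120362987-120363008, minus strand: cccactcctcaataCTACCTCt
Hmga2 site 3, chr10:120362549-120362570, minus strand: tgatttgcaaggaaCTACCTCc
Hmga2 site 4, chr10:120361691-120361712, minus strand: atcaaaacacactaCTACCTCt
Lin28b site 1, chr10:45381022-45381043, minus strand: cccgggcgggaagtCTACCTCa
Igf2bp1 site 1, chr11:95961778-95961799, minus strand: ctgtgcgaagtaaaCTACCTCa
Igf2bp2 site 1, chr16:22059473-22059494, minus strand: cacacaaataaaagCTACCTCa
Igf2bp3 site 1, chr6:49086787-49086808, minus strand: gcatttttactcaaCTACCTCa

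**Figure D1:**
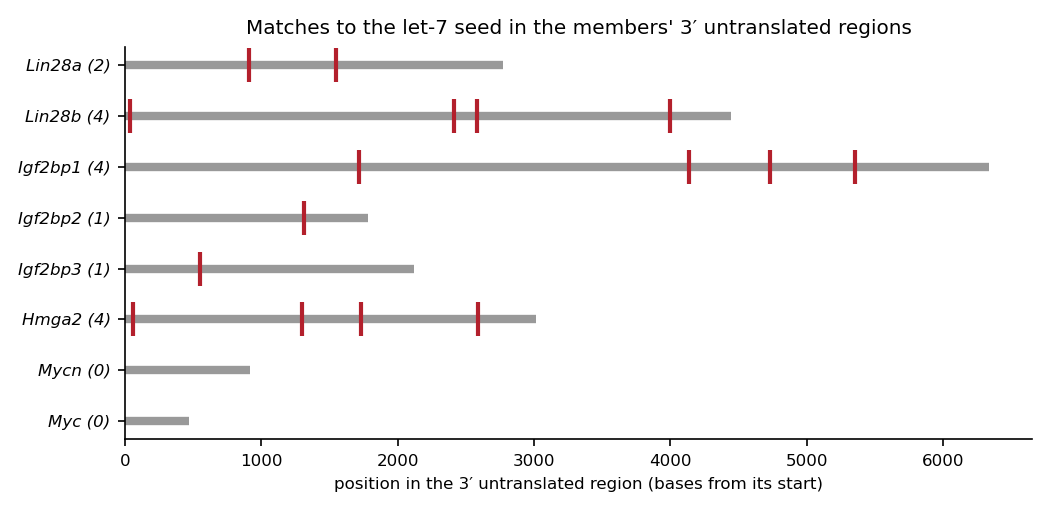
Positions of the let-7 seed matches (red ticks) along the longest annotated 3′ untranslated region of each member (grey bars, in bases from the start of the region), with the number of matches in brackets. Hmga2, Lin28b and Igf2bp1 each carry 4 ticks, and Mycn and Myc carry none.

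Cells were barcodes with at least 3000 UMIs (unique molecular identifiers, which count captured mRNA molecules), no fewer than 500 detected genes and mitochondrial UMIs of 20% or less: 5529 in replicate 1 and 4206 in replicate 2, with medians of 15016 and 20007.5 UMIs. The libraries shared 6 of these barcodes. Classes were set from fixed marker genes, none of them a member, and are called "like" a cell type for that reason; 15.7% and 15.1% of cells met no class and were left out. Levels are counts per 1000000 UMIs (CPM) of the summed cells of a class in 1 library. Because transcripts were counted from their 3′ ends, with no value per length, levels are compared between classes for 1 gene and not between genes. Of the 10 endothelial, 10 mural and 8 podocyte markers all were highest in their own class, as were 7 of 8 nephron progenitor, 10 of 12 stroma and 5 of 8 loop or distal tubule markers.

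**Figure D2:**
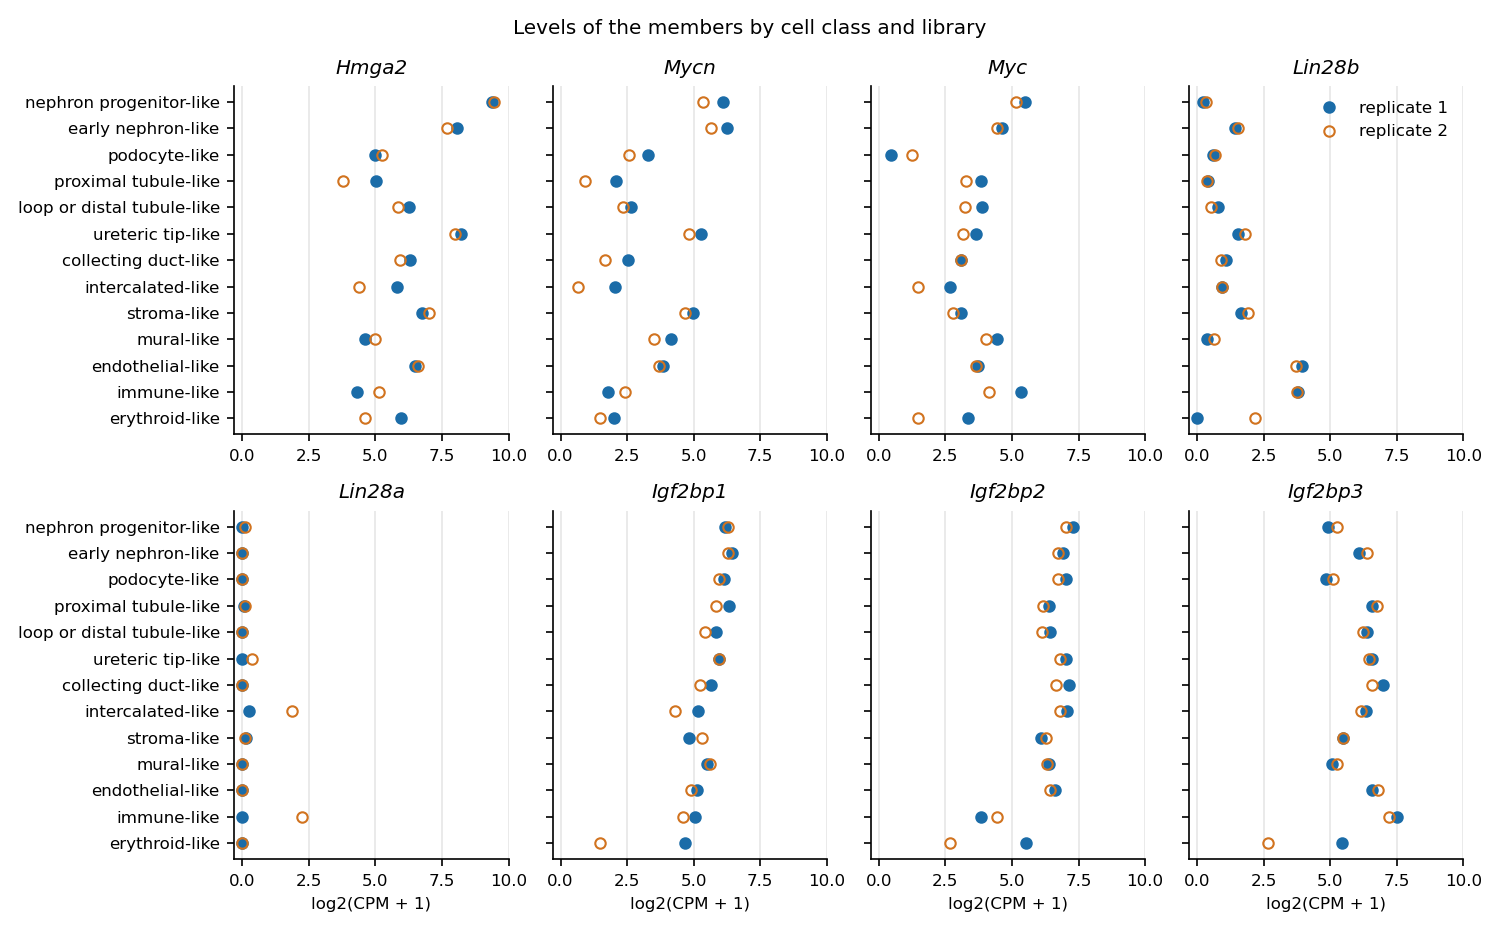
Levels of the 8 members as log2(CPM + 1) in 13 marker-gated cell classes (rows), with filled blue points for replicate 1 and open orange points for replicate 2. Hmga2 is highest in nephron progenitor-like cells at 672 and 703 CPM, Lin28b is highest in endothelial-like and immune-like cells, and Lin28a reaches at most 3.78 CPM, in immune-like cells of replicate 2.

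Hmga2 had a steep gradient along the nephron lineage. Its level was 672 CPM in replicate 1 and 703 CPM in replicate 2 in nephron progenitor-like cells, the Six2- and Cited1-expressing cells that form nephrons. It was 268 and 207 CPM in early nephron-like cells, the Wnt4- and Lhx1-expressing cells of the first epithelial stages. It was 30.8 and 36.7 CPM in podocyte-like cells, 31.3 and 12.9 CPM in proximal tubule-like cells, and 74.9 and 56.9 CPM in loop or distal tubule-like cells. The progenitor values lay above those of every other class, and the next in order, ureteric tip-like cells (299 and 254 CPM) and early nephron-like cells, overlapped each other. In barcodes of 1 to 100 UMIs, mostly free RNA, Hmga2 stood at 108 and 95.2 CPM, above its level in the podocyte-like and proximal tubule-like classes; its part in those low levels was not tested. Among the 12 neighbouring pairs in the order of Hmga2 levels, 5 did not overlap between libraries.

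Mycn shared most of this gradient but not its peak. In early nephron-like cells it was at 74.3 and 49.6 CPM and in nephron progenitor-like cells at 66.8 and 39.7 CPM, so the 2 highest classes overlapped. Next came the ureteric tip-like class at 37.9 and 27.4 CPM and the stroma-like class at 30.3 and 24.8 CPM. The podocyte-like class held 8.84 and 5.01 CPM, and proximal tubule-like cells 3.24 and 0.876 CPM. Replicate 1 was above replicate 2 for Mycn in 12 of the 13 classes, immune-like cells being the exception, and over all cells the libraries stood at 29.6 and 17.5 CPM.

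Myc was highest in nephron progenitor-like cells, at 43.7 and 34.3 CPM, and lowest in podocyte-like cells, where 3 and 7 UMIs gave 0.379 and 1.4 CPM. Immune-like cells stood at 39.2 and 16.4 CPM, overlapping the progenitors. Early nephron-like cells were at 23.8 and 21.0 CPM, mural-like cells at 20.8 and 15.4 CPM and stroma-like cells at 7.44 and 5.85 CPM.

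Lin28b did not follow the progenitors. It was highest in endothelial-like cells, at 14.4 and 12.1 CPM from 189 and 150 UMIs, and in immune-like cells, at 12.9 and 12.6 CPM from 26 and 20 UMIs. Nephron progenitor-like cells had the lowest level of the 13 classes, 0.178 and 0.248 CPM from 4 UMIs in each library. The endothelial and progenitor values did not overlap, and this difference was not tested. In barcodes of 1 to 100 UMIs, which hold mostly RNA free in the suspension, Lin28b stood at 4.36 and 1.96 CPM. This was above its level in nephron progenitor-like, early nephron-like, podocyte-like, proximal tubule-like and loop or distal tubule-like cells.

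Lin28a, the paralogue best known from the early embryo, was detected at few UMIs. All cells together held 3 UMIs in replicate 1 and 21 UMIs in replicate 2, of which 9 were in intercalated-like cells (2.67 CPM) and 6 in immune-like cells (3.78 CPM) of replicate 2. Of the 13 classes, 7 held no Lin28a UMI in either library. No fold change is given for Lin28a.

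The Igf2bp genes were present in every class and differed from each other in their order. Igf2bp1 was highest in early nephron-like cells (85.1 and 77.3 CPM) and nephron progenitor-like cells (71.5 and 77.3 CPM), and reached 78.1 and 56.4 CPM in proximal tubule-like cells, so 3 classes of the nephron lineage overlapped. Igf2bp2 was at 155 and 130 CPM in nephron progenitor-like cells and had its lowest mean in immune-like cells, at 13.4 and 20.8 CPM, which overlapped erythroid-like cells at 45.6 and 5.35 CPM. For Igf2bp3, immune-like cells were highest at 180 and 148 CPM, while nephron progenitor-like cells were at 29.5 and 37.2 CPM and podocyte-like cells at 28 and 33.1 CPM. Of the 12 neighbouring pairs in each order, 1 was separate for Igf2bp1, 3 for Igf2bp2 and 4 for Igf2bp3.

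Hmga2 was found in most single progenitor-like cells. After every cell was thinned to 3000 UMIs, 75.5% (95% exact binomial interval 72.0 to 78.7) of nephron progenitor-like cells in replicate 1 and 78.4% (73.9 to 82.4) in replicate 2 had a Hmga2 UMI. The share was 41.0% and 40.8% in early nephron-like cells and 3.03% and 4.41% in podocyte-like cells, a differentiated class with little Hmga2 taken as the background. Median depths before thinning were 18818 and 25332 UMIs in the progenitor-like and 9787 and 14875 UMIs in the podocyte-like cells. Without thinning, 97.5% and 98.7% of the progenitor-like cells had a Hmga2 UMI, against 13.6% and 17.6% of the podocyte-like cells. Mycn was found in 18.4% and 13.2% of thinned progenitor-like cells and in 0.450% and 0% of proximal tubule-like cells, where 0 of 267 cells allows up to 1.12%. Lin28b was found in 4.60% (3.18 to 6.39) and 3.07% (1.86 to 4.76) of thinned endothelial-like cells, and in 0% and 0.264% of nephron progenitor-like cells, where 0 of 669 cells allows up to 0.448%. Unthinned, the Lin28b shares were 14.8% and 13.9% in endothelial-like cells against 0.598% and 1.06% in nephron progenitor-like cells. These intervals cover counting error only.

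The first comparison set nephron progenitor-like cells against differentiated nephron-like cells, the unweighted mean of podocyte-like, proximal tubule-like and loop or distal tubule-like cells. The test was edgeR's quasi-likelihood test on the sums per class and library, with the library as a block and Benjamini-Hochberg adjustment over the 18002 tested genes. Of the 8 members 4 were higher and 2 lower in the progenitors, where 28.3% of all genes were called higher, 30.3% lower and 58.6% in either direction. Hmga2 was 17.4-fold higher (log2 fold change 4.13, SE 0.23, edgeR adjusted p = 4.29e-11). Mycn was 11.8-fold higher (3.57, SE 0.18, edgeR adjusted p = 1.58e-11) and Myc 7.91-fold higher (2.98, SE 0.21, edgeR adjusted p = 6.97e-10). Each of these 3 genes was higher in both libraries and kept its call in every alternative tried. The Myc mean joins unlike classes: podocyte-like cells held 0.379 and 1.4 CPM, against 13.3 and 8.61 CPM in proximal tubule-like cells. Loop or distal tubule-like cells held 13.8 and 8.55 CPM of Myc, against 43.7 and 34.3 CPM in the progenitors. Igf2bp2 was 1.47-fold higher (0.56, SE 0.12, edgeR adjusted p = 0.00056), and this call was lost with free RNA subtracted (adjusted p = 0.0957). Igf2bp3 was 2.03-fold lower (log2 fold change -1.02, SE 0.16, edgeR adjusted p = 1.57e-05). It was not lower than in every differentiated class: the progenitors, at 29.5 and 37.2 CPM, overlapped podocyte-like cells at 28 and 33.1 CPM. Proximal tubule-like cells held 93.1 and 107 CPM of Igf2bp3, and loop or distal tubule-like cells 83.5 and 73.5 CPM. Lin28b was 2.32-fold lower (-1.21, SE 0.47, edgeR adjusted p = 0.0336), and its call was lost in 4 of 9 alternatives, with adjusted p from 0.056 without normalisation factors to 0.242 with free RNA subtracted. For Igf2bp1 the log2 fold change was 0.21 (SE 0.16, edgeR adjusted p = 0.288), and the libraries differed in sign at -0.02 and 0.44.

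The second comparison, nephron progenitor-like against early nephron-like cells, covers the step at which progenitors turn into epithelium. Of the 8 members 2 were higher and 2 lower in the progenitors, against 14.4% of all genes called higher, 15.5% lower and 29.9% in either direction. Hmga2 was 3.08-fold higher in the progenitors (log2 fold change 1.62, SE 0.31, edgeR adjusted p = 0.000501) and Myc 1.83-fold higher (0.87, SE 0.22, edgeR adjusted p = 0.00604). Both calls were lost with free RNA subtracted, with log2 fold changes of 1.64 (adjusted p = 0.0863) for Hmga2 and 0.87 (adjusted p = 0.215) for Myc, and Myc also without the library block (adjusted p = 0.0705). Lin28b was 7.80-fold lower in the progenitors (-2.96, SE 0.45, edgeR adjusted p = 5.17e-05) and Igf2bp3 2.13-fold lower (-1.09, SE 0.18, edgeR adjusted p = 0.000126). For Mycn the log2 fold change was -0.16 (SE 0.22, edgeR adjusted p = 0.621). With free RNA subtracted the Lin28b value moved to -4.15. That subtraction exceeded the 4 progenitor UMIs of replicate 1 and left none there, so the move is not a measured increase. Igf2bp2, at 0.41 (SE 0.15, edgeR adjusted p = 0.0507), passed the threshold in 6 alternatives, and DESeq2 gave adjusted p = 0.00326.

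Early nephron-like cells were next set against differentiated nephron-like cells. Here 4 of the 8 members were higher and the other 4 passed in neither direction, against 25.2% of all genes called higher, 28.9% lower and 54.1% in either direction. Mycn was 13.2-fold higher (log2 fold change 3.73, SE 0.18, edgeR adjusted p = 5.18e-11), Hmga2 5.67-fold (2.50, SE 0.23, edgeR adjusted p = 4.48e-08) and Myc 4.33-fold (2.11, SE 0.22, edgeR adjusted p = 2.18e-07). The differentiated mean of Myc again joined a low podocyte-like class with higher tubule classes. Lin28b was 3.37-fold higher (1.75, SE 0.33, edgeR adjusted p = 0.000165), from 31 and 22 UMIs in early nephron-like cells. Lin28b was thus higher in the early nephron-like than in the progenitor-like class and lower again in the differentiated classes, whereas Hmga2 and Myc were lower at each step. The differentiated side held few Lin28b UMIs: 4 and 3 in podocyte-like, 6 and 4 in proximal tubule-like, and 10 and 7 in loop or distal tubule-like cells. All these classes lay below the barcodes of 1 to 100 UMIs (4.36 and 1.96 CPM), as did early nephron-like cells (1.71 and 1.94 CPM). The part of free RNA in these levels was not tested. The Lin28b log2 fold change moved to 2.61 with free RNA subtracted and that of Mycn to 4.34 after thinning. In replicate 1 the subtraction left no Lin28b count in podocyte-like or proximal tubule-like cells, so the move to 2.61 is not a measured increase. This comparison shares cells with the previous 2.

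**Figure D3:**
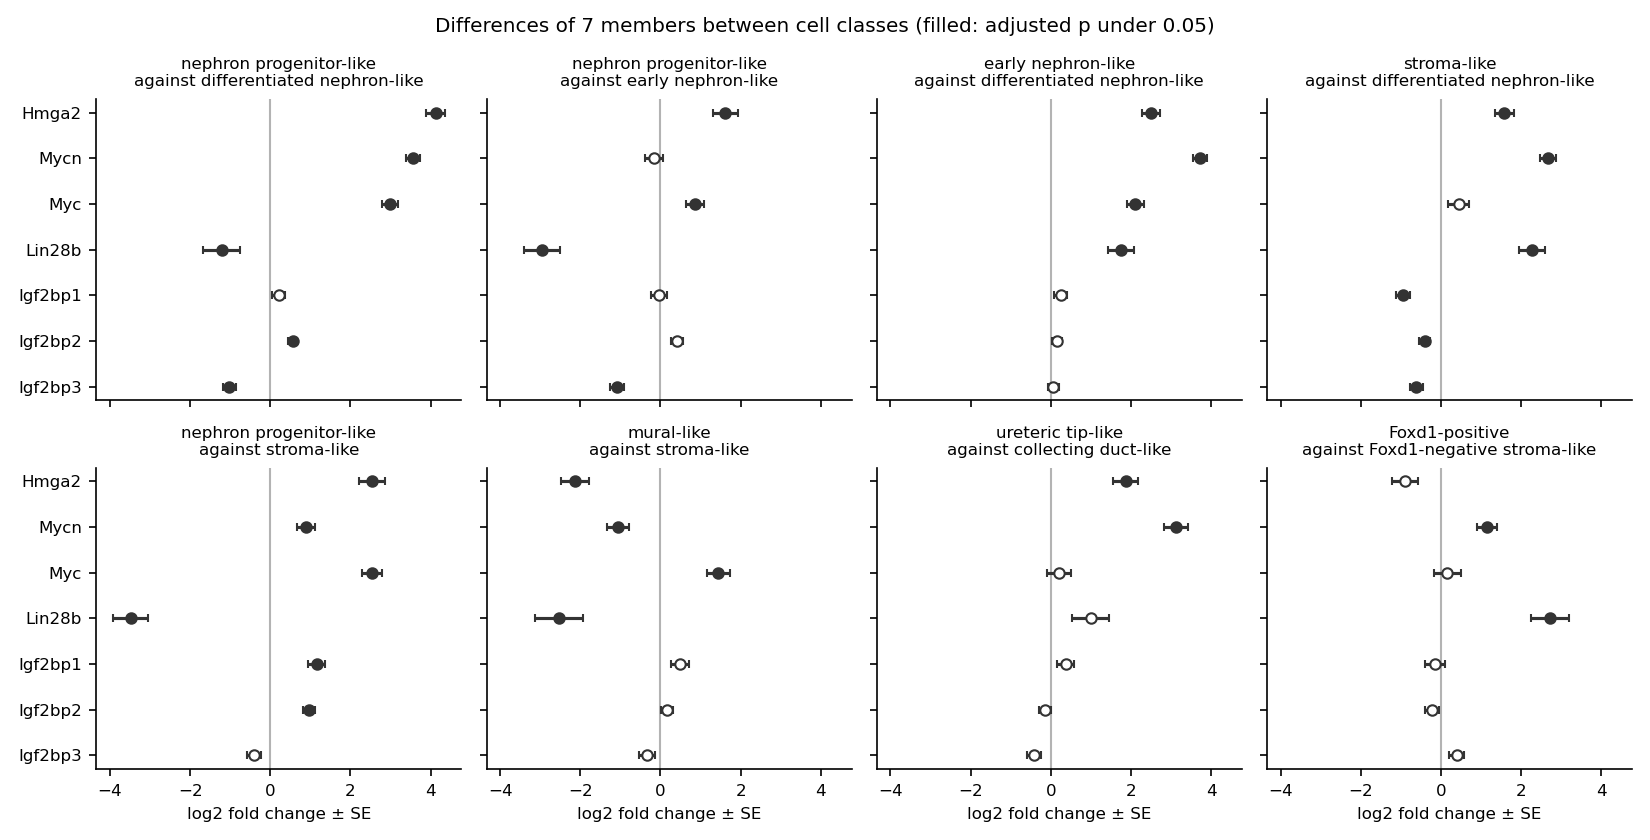
Log2 fold changes of 7 members in the 8 comparisons, each as the estimate (point) and its standard error (bar) from edgeR, with filled points where the adjusted p was under 0.05. Hmga2 and Mycn lie to the right in nephron progenitor-like, early nephron-like and stroma-like cells against differentiated nephron-like cells, while Lin28b lies to the left wherever the progenitors come first.

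Stroma-like cells, the interstitial cells that carry Pdgfra and collagens, were compared with differentiated nephron-like cells. Of the 8 members 3 were higher and 3 lower in the stroma, against 28.8% of all genes called higher, 31.3% lower and 60.1% in either direction. Mycn was 6.34-fold higher (log2 fold change 2.66, SE 0.20, edgeR adjusted p = 1.15e-09), Lin28b 4.82-fold (2.27, SE 0.32, edgeR adjusted p = 6.6e-06) and Hmga2 was higher too (1.59, SE 0.24, edgeR adjusted p = 1.33e-05). The 3 Igf2bp genes were lower than the mean of the differentiated classes: Igf2bp1 by 1.93-fold (edgeR adjusted p = 0.000166), Igf2bp3 by 1.53-fold (edgeR adjusted p = 0.002) and Igf2bp2 by 1.33-fold (edgeR adjusted p = 0.0107). Igf2bp1 alone lay below each of these classes. Igf2bp3, at 44 and 43.8 CPM in stroma-like cells, was above podocyte-like cells (28 and 33.1 CPM) and below both tubule classes. Igf2bp2, at 68 and 76 CPM, overlapped both tubule classes. The Igf2bp2 call was lost in 3 of 11 alternatives (adjusted p up to 0.174) and that of Igf2bp3 after thinning (adjusted p = 0.106). The Lin28b value moved to 3.06 with free RNA subtracted, which left no Lin28b count in podocyte-like or proximal tubule-like cells of replicate 1. For Myc the log2 fold change was 0.44 (SE 0.27, edgeR adjusted p = 0.171). Here too the mean joins unlike classes: stroma-like cells (7.44 and 5.85 CPM of Myc) lay above podocyte-like cells and below both tubule classes.

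Set directly against stroma-like cells, nephron progenitor-like cells were higher for 5 of the 8 members and lower for 1, against 21.3% of all genes called higher, 20.7% lower and 42% in either direction. Myc was 5.83-fold higher (log2 fold change 2.54, SE 0.25, edgeR adjusted p = 1.6e-07) and Hmga2 5.81-fold higher (2.54, SE 0.32, edgeR adjusted p = 3.18e-06). Igf2bp1 was 2.23-fold, Igf2bp2 1.95-fold and Mycn 1.87-fold higher, and the Mycn call was lost without the library block (adjusted p = 0.0688) and with free RNA subtracted (adjusted p = 0.0862). Lin28b was 11.2-fold lower in the progenitors (-3.48, SE 0.44, edgeR adjusted p = 3.8e-06). Replicate 1 gave -3.50 and replicate 2 gave -3.40, and the value moved to -4.60 with free RNA subtracted. The subtraction exceeded the 4 progenitor UMIs of replicate 1 and left none there, so the move is not a measured increase. For Igf2bp3 the log2 fold change was -0.41 (SE 0.18, edgeR adjusted p = 0.0811). The progenitor-like sums carried 275 CPM of the 12 stroma markers, 2.70% of the stroma level, with no marker at 0; the part of this in the members' values was not tested.

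Mural-like cells, the smooth muscle, pericyte and renin cells that in the kidney descend largely from Foxd1-expressing stroma, were compared with stroma-like cells. Of the 8 members 1 was higher and 3 lower in mural-like cells, against 8.59% of all genes called higher, 6.55% lower and 15.1% in either direction. Myc was 2.72-fold higher (log2 fold change 1.44, SE 0.29, edgeR adjusted p = 0.00152). Lin28b was 5.76-fold lower (-2.53, SE 0.60, edgeR adjusted p = 0.00663), from 1 and 2 UMIs in mural-like cells. Counting alone allows a ratio of stroma-like to mural-like cells from 1.19 to 309 in replicate 1 and from 1.32 to 44 in replicate 2 (95% exact intervals). Hmga2 was 4.39-fold lower (-2.13, SE 0.35, edgeR adjusted p = 0.000266), at 23.1 and 30.3 CPM against 106 and 128 CPM in stroma-like cells. Mycn was 2.09-fold lower (-1.06, SE 0.27, edgeR adjusted p = 0.0112), a call lost in 3 of 11 alternatives (adjusted p up to 0.174), and the Myc call was lost with free RNA subtracted (adjusted p = 0.0689). With the gating level and margin doubled the Lin28b call was lost as well (adjusted p = 0.0543). Subtraction of free RNA, estimated at 21.2% and 39.4% of the mural-like sums against 2.38% and 3.55% of the stroma-like sums, moved the log2 fold change of Hmga2 to -12.9 and that of Lin28b to -7.30. The subtraction left no mural-like count of either gene, so these values are set by the subtraction and are not sizes of a difference.

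In the ureteric lineage, ureteric tip-like cells, the Ret- and Wnt11-expressing cells at which the duct branches, were compared with collecting duct-like cells. Of the 8 members 2 were higher in the tip, against 13.3% of all genes called higher, 19.1% lower and 32.4% in either direction. Mycn was 8.69-fold higher (log2 fold change 3.12, SE 0.30, edgeR adjusted p = 4.62e-07), at 37.9 and 27.4 CPM against 4.82 and 2.22 CPM. Hmga2 was 3.66-fold higher (1.87, SE 0.32, edgeR adjusted p = 0.000165), at 299 and 254 CPM against 78.2 and 59.6 CPM. For Lin28b the log2 fold change was 1.0 (SE 0.46, edgeR adjusted p = 0.113). The Mycn value moved to 4.52 after thinning and to 3.79 with free RNA subtracted. The tip class held 63 and 42 cells, the fewest of the classes named here apart from erythroid-like cells.

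Within stroma-like cells, those with a Foxd1 UMI were set against those without. The split compared 330 with 470 cells in replicate 1 and 400 with 364 in replicate 2, and the test was adjusted over 17372 genes. Lin28b was at 3.92 and 4.54 CPM in Foxd1-positive cells, from 16 and 33 UMIs, and at 0.750 and 0.525 CPM in Foxd1-negative cells, from 4 and 3 UMIs. Mycn was at 42.4 and 33.6 CPM against 21.0 and 13.7 CPM. Counting alone allows a Lin28b ratio from 1.69 to 21.5 in replicate 1 and from 2.71 to 44 in replicate 2 (95% exact intervals). Neither gene's values overlapped between the sides, but nor did those of Hmga2, Igf2bp2 and Igf2bp3, which were not called. The share of all genes without overlap was not computed. Lin28b and Mycn were the 2 of 8 members called higher, against 1.09% of all genes called higher, 1.52% lower and 2.61% in either direction. Lin28b was 6.58-fold higher (log2 fold change 2.72, SE 0.47, edgeR adjusted p = 0.00228) and Mycn 2.23-fold higher (1.16, SE 0.25, edgeR adjusted p = 0.012).

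Hmga2 lay the other way in this split, at 80.5 and 85.5 CPM in Foxd1-positive and 126 and 183 CPM in Foxd1-negative cells, without passing the test (log2 fold change -0.90, SE 0.32, edgeR adjusted p = 0.199). Foxd1-positive cells were deeper, with medians of 11751 and 16609.5 UMIs against 10596 and 15427.5. When the split was made on cells thinned to 3000 UMIs, an alternative added after the data were seen, 149 and 180 cells counted as positive and both calls were lost, with log2 fold changes of 1.69 for Lin28b (adjusted p = 0.112) and 0.78 for Mycn (adjusted p = 0.253). Both calls were also lost with free RNA subtracted, that of Lin28b with the gate doubled (adjusted p = 0.0657), where the Mycn value moved to 2.64, and that of Mycn without the library block (adjusted p = 0.313) or with counts thinned (adjusted p = 0.0584). The 10 endothelial markers, from the class richest in Lin28b, summed to 95.7 and 74.8 CPM in Foxd1-positive cells and to 124 and 136 CPM in Foxd1-negative cells, with no marker at 0; their part in the Lin28b difference was not tested.

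Other splits within classes, chosen after their values were seen and given without a test, show how the members vary inside a class. Among nephron progenitor-like cells, Hmga2 was at 698 and 727 CPM in cells with a UMI of Cited1, a marker of the least committed progenitors, and at 371 and 440 CPM in the 88 and 44 cells without one. Mycn ran the opposite way, at 64.6 and 36.0 CPM with Cited1 and 92.6 and 80.3 CPM without. Myc was at 43.2 and 32.6 CPM with and 49.1 and 53.3 CPM without. Cited1 helped define the class, and the cells with it were deeper in both libraries.

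**Figure D4:**
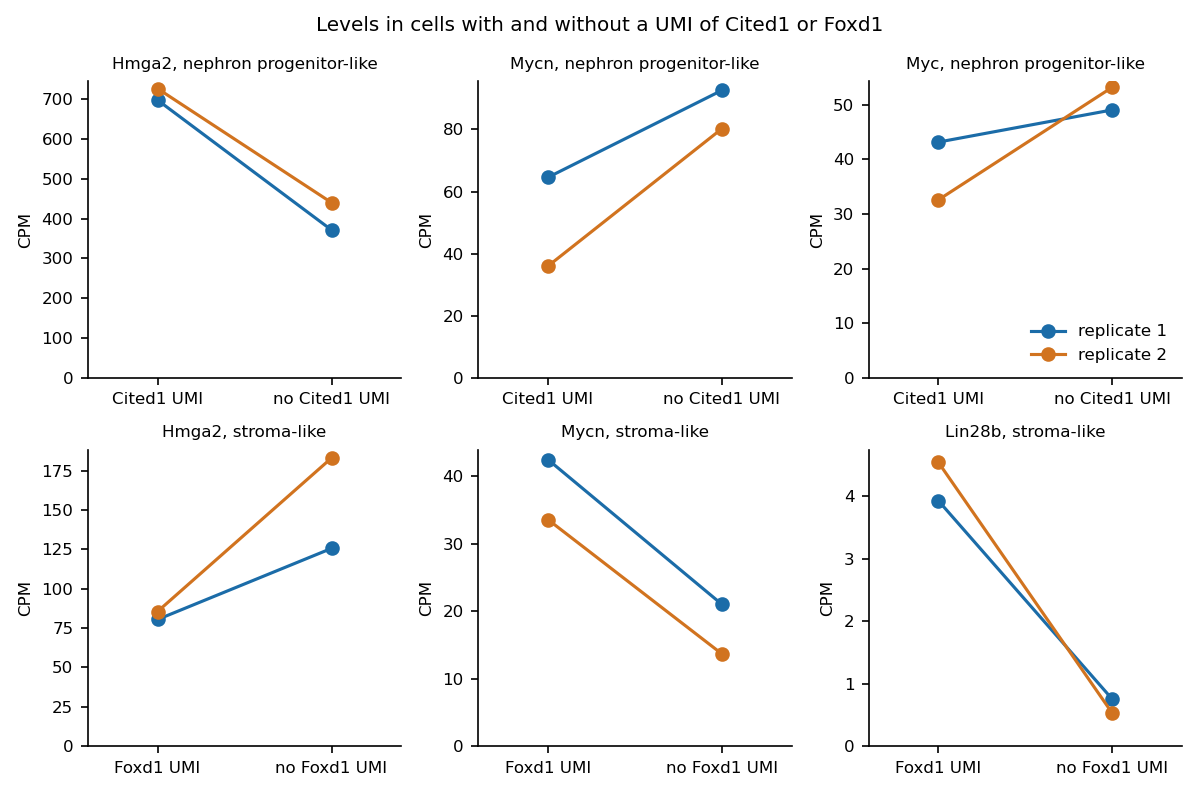
Levels in CPM (axes from 0) in nephron progenitor-like cells with and without a Cited1 UMI (upper row: Hmga2, Mycn, Myc) and in stroma-like cells with and without a Foxd1 UMI (lower row: Hmga2, Mycn, Lin28b), with 1 line per library. Both libraries run the same way in each panel, and Hmga2 and Mycn slope in opposite directions in both classes.

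In stroma-like cells with a UMI of the proliferation gene Mki67, Mycn was at 41.4 and 37.6 CPM against 24.1 and 18.0 CPM without. The classes with most Mycn had no such order: it was at 65.5 and 40.1 CPM with against 68.6 and 39.1 CPM without in nephron progenitor-like cells, and at 71.5 and 50.4 CPM against 94.9 and 44.5 CPM in early nephron-like cells. In early nephron-like cells Hmga2 was at 281 and 216 CPM with Mki67 and 172 and 144 CPM without, while in nephron progenitor-like cells the libraries ran opposite ways, at 695 and 676 CPM with and 641 and 735 CPM without. Lin28b in endothelial-like cells also differed in order between libraries, at 14.9 and 10.8 CPM with Mki67 and 13.7 and 13 CPM without, and it was present on both sides of a split by Plvap, an endothelial fenestration gene, at 14.8 and 12.3 CPM with and 10.9 and 7.69 CPM without. In immune-like cells, those with the macrophage gene C1qa held Lin28b at 13.7 and 16.8 CPM and Myc at 45.6 and 21.7 CPM, against 10.4 and 5.23 CPM and 18.7 and 6.98 CPM without it.

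Across the 26 sums of class and library, Pearson's r between log2(CPM + 1) values was 0.84 for Hmga2 with Mycn, 0.77 for Igf2bp1 with Igf2bp2, and -0.05 for Hmga2 with Lin28b. Sums of 1 library share its depth and preparation, so these are descriptions. The genes most like a member over the same sums were found without using function. For Lin28b they were Gm32401 (r = 0.91) and Cmklr1 (0.89), for Hmga2 Dnaaf3 (0.91) and Grik4 (0.89), for Mycn Rnf219 and Trim59 (both 0.91), and for Myc its chromosomal neighbour Pvt1 (0.88). Pvt1, a long noncoding RNA gene, was at 115 and 100 CPM in nephron progenitor-like cells and 4.67 and 2.0 CPM in podocyte-like cells, the classes in which Myc too was highest and lowest among nephron cells. For Igf2bp2 they were Zfp606 and Ryk, and for Igf2bp3 Scly and Ccdc12.

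Genes of the surrounding pathway were read from gene lists, whose counts stand beside the shares of all genes called, 28.3% higher and 30.3% lower in progenitors against differentiated nephron-like cells. Of 18 MYC target genes of ribosome production and growth, 15 passed the test between nephron progenitor-like and differentiated nephron-like cells, all higher in the progenitors, with a list median log2 fold change of 1.10 against -0.04 over all genes tested. Npm1, a nucleolar ribosome assembly factor, was higher by 1.57 and Nop56, a box C/D snoRNP protein, by 1.52 on the log2 scale. Between progenitor-like and early nephron-like cells 1 of the 18 passed (Cdk4, log2 fold change -0.32), with a median of -0.09 against 0.04. There 29.9% of all genes passed in either direction. In early nephron-like against differentiated cells 17 of 18 were higher, where 25.2% of all genes were. In ureteric tip-like against collecting duct-like cells 13 of 18 were higher, where 13.3% of all genes were, with a median of 0.71 against -0.11. In the MYC partner network, 7 of 14 genes were higher and 2 lower in progenitors than in differentiated cells, with Mycl, the third MYC gene, lower (log2 fold change -1.16).

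Of 16 genes that act with LIN28 and let-7, 9 were higher and 2 lower in progenitors than in differentiated nephron-like cells (all genes 28.3% and 30.3%), with a median of 0.38 against -0.04 over all genes. Mir100hg, the host transcript of a let-7 hairpin, was higher by 2.98 on the log2 scale and Msi1, an RNA-binding partner of LIN28, by 2.79. Tut4, which adds uridines to let-7 precursors, was higher by 0.86, whereas its paralogue Tut7 was lower (log2 fold change -0.43). Mir100hg stood at 303 and 335 CPM in stroma-like, 102 and 70.5 CPM in nephron progenitor-like and 19.3 and 20.1 CPM in early nephron-like cells. Mature microRNAs are not captured by this method, so the let-7 level itself was not measured.

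Of 29 listed let-7 targets outside the members, 27 could be tested, and 5 were higher and 9 lower in progenitors than in differentiated cells, against 28.3% and 30.3% of all genes, with a median of -0.03 against -0.04 over all genes. Ccnd2, a cyclin, was higher by 2.37, while Cdk6, the kinase it can bind, was lower (log2 fold change -2.50). Hmga1, the paralogue of Hmga2, had a log2 fold change of -1.81 between progenitor-like and early nephron-like cells, opposite to Hmga2. Among 8 mRNAs known to be bound by IGF2BP proteins, 3 were higher and 2 lower in progenitors than in differentiated cells (all genes 28.3% and 30.3%), with a median of 0.08. Of 8 imprinted or fetal growth genes, 5 were higher and 1 lower in progenitors than in differentiated cells (all genes 28.3% and 30.3%). In stroma-like against differentiated cells 7 were higher, where 28.8% of all genes were, with a median log2 fold change of 2.52 against -0.08 over all genes. Mest, an imprinted gene of growing fetal tissues, was higher by 4.49 in progenitors and by 4.21 in stroma, and Igf2 was higher by 0.92 and 2.93.

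**Figure D5:**
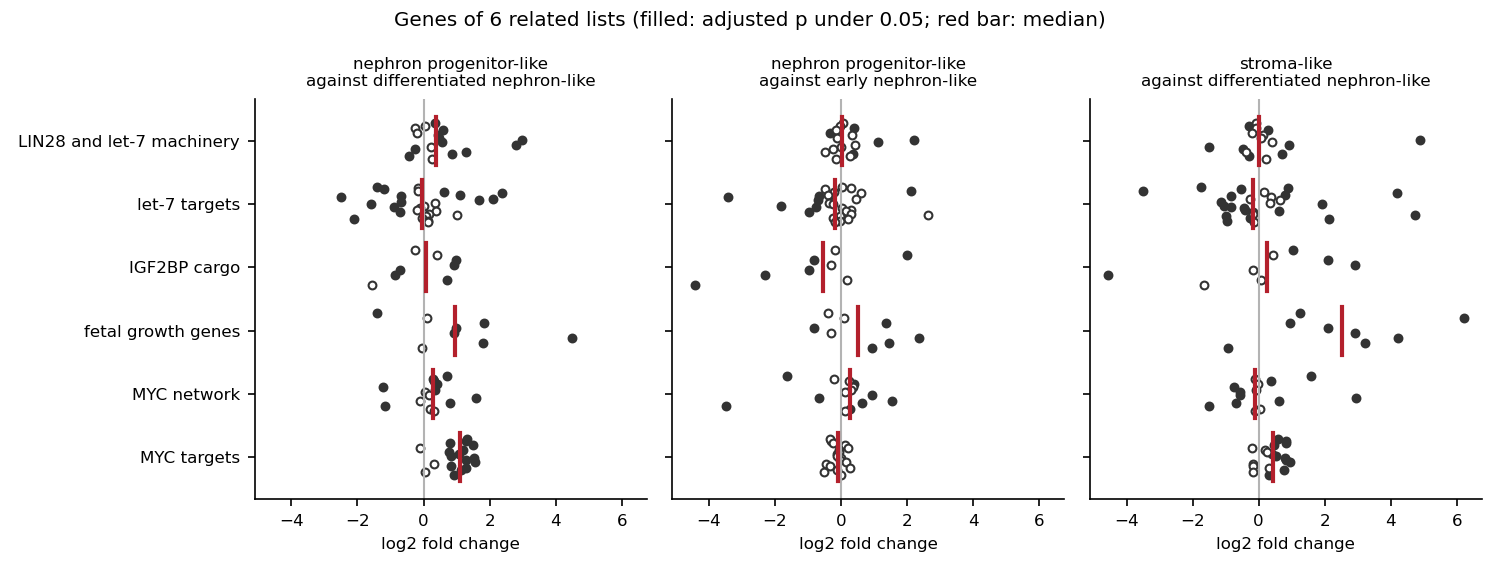
Log2 fold changes of the genes of 6 related lists in 3 comparisons, with 1 point per gene (filled where the edgeR adjusted p was under 0.05) and a red bar at the list median. MYC targets lie to the right in progenitors against differentiated cells with a median of 1.10 and around 0 against early nephron-like cells, and 7 of 8 fetal growth genes lie to the right in stroma with a median of 2.52.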

How the data were processed

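The authors deposited raw UMI counts per gene and barcode for 2 libraries. The file headers name Cell Ranger 4, whereas the submitters' processing notes name Cell Ranger 6.0.1 and the mm10 build; which of these made the files is not given in the sources used here, nor is whether counting used strand, so reads of Hmga2, Igf2bp1, Igf2bp3 and Lin28a cannot be told apart from those of genes on the opposite strand that overlap them. The members and gene lists were chosen with earlier results of these data known.

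Barcodes with at least 3000 UMIs, 500 genes and at most 20% mitochondrial UMIs were kept, holding 73.1% and 74.5% of the 200331687 and 173166168 UMIs. Cells were assigned to classes by the mean z-score of markers (at least 0.5, a margin of 0.25 to the next class, 3 markers detected). Of the gated cells 4.89% and 4.76% lay within 0.1 of the cutoff. Counts were summed per class and library. Classes needed 20 cells in each library, which 13 had, and these were fitted together in edgeR 4.0.16 (R 4.3.3; trimmed-mean factors, filterByExpr, library block, 12 residual degrees of freedom), and the Foxd1 split a second fit with 13. Genes used for gating were not tested, and the threshold was an adjusted p of 0.05. On simulated counts for the first comparison (18132 genes) 85% of 2-fold and 93% of 4-fold changes were recovered, with 8 false calls among 186. Only 100 genes were changed at each fold, and all others had the same mean level in every class. In the data 58.6% of genes were called in this comparison, so these rates do not carry over to it.

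Named genes were the 8 members, up to 5 genes like each in pattern, and from each list up to 2 genes highest and 2 lowest past the threshold; Tut4 was added after its values were seen, and the genes like Igf2bp1 are not reported here. Doublets were left in, and the Scrublet alternative (scanpy 1.11.5) removed 245 and 142 cells. Other alternatives were DESeq2 1.42.0, other filters, gates, thinning to 3000 UMIs, and subtraction of free RNA scaled by haemoglobin. In that subtraction no count was allowed to turn negative. Of the gene identifiers 32158 of 32285 were found in GENCODE M21 (GRCm38), including all 8 members. Mature miRNA sequences are from RefSeq (GRCm38.p6).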

Additional observations from a re-analysis of the deposited data

How the results depend on the processing

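Of 614 member values recomputed under 12 other settings, 562 kept their direction and side of the threshold. Of the 34 calls 22 held in every setting that gave a value for them, and none of the 34 changed sign. Lin28b gave no value with cells thinned to 3000 UMIs, so its calls were not tried there. The counts of members called that follow stand without the share of all genes called under the same setting, which was not computed. A change over all genes can therefore not be told apart from a change in the members. The number of members called fell from 4 to 2 in nephron progenitor-like against early nephron-like cells with free RNA subtracted, and from 4 to 2 in mural-like against stroma-like cells with free RNA subtracted or the gate doubled. It rose from 2 to 4 in ureteric tip-like against collecting duct-like cells when only the classes compared were fitted, which leaves few residual degrees of freedom. For the Foxd1 split it went from 2 to 4 in the fit of those sums alone, with the same limit, and to 1 without the library block or with the gate doubled. With cells thinned it was also 1, but this was neither Lin28b, which gave no value there, nor Mycn. It fell to 0 with free RNA subtracted or the split made after thinning. In those 2 settings edgeR gave 2 members each at an unadjusted p under 0.05, and DESeq2 called 2 in the counts as deposited. The cause was not tested, though the free RNA estimate ranged from 0.448% in ureteric tip-like cells of replicate 2 to 45.3% in endothelial-like cells of replicate 1, over the fitted classes other than erythroid-like cells, and so subtracts unevenly. Uncalled values that changed sign were, after thinning, Igf2bp2 in early nephron-like against differentiated cells (-0.029), Myc in stroma-like against differentiated cells (-0.063), in ureteric tip-like against collecting duct-like cells (-0.047) and in the Foxd1 split (-0.29), and Igf2bp1 in the Foxd1 split (0.19, and 0.074 with the split made after thinning); Igf2bp2 in mural-like against stroma-like cells was -0.044 with the gate doubled.

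The library number marks a library, and sums of 1 library were paired as a block in every main test. With no replicate block, 4 calls were lost: Myc in nephron progenitor-like against early nephron-like cells (adjusted p = 0.0705), Mycn in nephron progenitor-like against stroma-like cells (0.0688), in mural-like against stroma-like cells (0.169) and in the Foxd1 split (0.313), all by edgeR. Taken from 1 library, no call changed sign, while 5 uncalled values did: Igf2bp1 in nephron progenitor-like against differentiated (-0.02) and against early nephron-like cells (0.04), Igf2bp3 in early nephron-like against differentiated cells (-0.10), and Myc in the tip comparison (-0.06) and the Foxd1 split (-0.04). Depth limits Lin28a, which rests on fewer than 10 UMIs in any class of either library. The same limit holds for Lin28b in nephron progenitor-like, podocyte-like, proximal tubule-like, intercalated-like, ureteric tip-like, mural-like and erythroid-like cells.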
